A study of Homo sapiens with 2 samples.

Results

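The EGR and AP-1 immediate-early genes are 10 transcription factor genes, EGR1, EGR2 and EGR3, FOS, FOSB, FOSL1 and FOSL2, and JUN, JUNB and JUND. They were taken by name from 19719 protein-coding gene records of GRCh38 with a known strand, and peaks were looked up at their 5′ ends (3 kb on either side), inside their gene records and within 50 kb of the records. The data comprised 2 libraries from MDA-MB-231, a long-established human line of triple-negative breast cancer, grown in medium with fetal bovine serum, 1 made with an antibody against PRMT6 and 1 with an antibody against PARP1. PRMT6 is an enzyme that methylates arginines of histones and other proteins, and PARP1 attaches ADP-ribose chains to proteins. No drug, serum starvation or stimulation is given in the labels for these libraries. Each library had been reduced to a list of peaks, 9080 for PRMT6 and 11651 for PARP1, and the read depth behind them is unknown. Each peak carries the peak caller's score, taken here as the −log10 of its p-value. Scores are not comparable between the lists, so each is given with its rank in its own list, where 1 is best and equal scores share a rank. With 1 library per antibody there is no replicate check and no test, so every value describes these libraries, and the identity of the cells could not be checked from peak positions.

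Immediate-early genes are switched on within minutes of a growth factor or stress signal, without new protein synthesis. The set groups the listed EGR, FOS and JUN genes under this name, and whether each member is induced in this way was not measured here. Kinases of the MAPK pathway activate ternary complex factors such as ELK1, which act with serum response factor (SRF) at the CArG box of the serum response element. The EGR proteins are zinc finger factors that bind GC-rich sites. FOS and JUN proteins pair through leucine zippers to form AP-1, and FOS-family proteins need a JUN-family partner to bind DNA.

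Promoter peaks, meaning peaks with any base within 3 kb of the 5′ end, were found at all 10 genes in at least 1 of the lists. Of the 19719 coding genes, 3600 carried such a peak for PRMT6, 4430 for PARP1 and 2637 for both. The share of all genes reached by at least 1 list is not set beside the count of 10, which is a description only. PRMT6 promoter peaks were listed at 8 of the 10 genes (80.0%, 95% exact binomial interval 44.4% to 97.5%), against 18.3% of all protein-coding genes. PARP1 promoter peaks were listed at 9 of the 10 (90.0%, 55.5% to 99.7%), against 22.5% of all. Both lists had a promoter peak at 7 of the 10, EGR1, FOS, FOSL1, FOSL2, JUN, JUNB and JUND (70.0%, 34.8% to 93.3%), against 13.4% of all genes. At 6 of these 7 a PRMT6 promoter peak shared bases with a PARP1 peak, the exception being FOS. Of the 2637 genes with promoter peaks in both lists over all genes, 2540 had such an overlap (12.9% of all genes). Among genes with both peaks, overlap was thus no more frequent at the members. EGR2 had a PRMT6 peak only, and EGR3 and FOSB had PARP1 peaks only. No share of all genes is set beside these single-list genes, so they too are a description only. The intervals treat genes as independent and cover counting error only. The study named EGR1 as a target from these libraries and assayed it by qChIP, so its peaks are not independent evidence, and without it 6 of 9 genes had promoter peaks in both lists. The study also reported higher EGR1 mRNA after knockdown of PRMT6, PARP1, CUL4B or DDB1, which was not examined here.

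These counts fell with the setting, and so did the share of all genes. Within 1 kb of the 5′ end, PRMT6 peaks were listed at 5 members (16.3% of all genes), PARP1 peaks at 8 (20%, 3948 genes) and peaks of both lists at 5 (12.0%), since the PRMT6 peaks of EGR2, FOS and JUNB lie further out. With only the higher-scoring peaks of each list, those from about the median score upward, PRMT6 promoter peaks were at 7 members (13.4% of all genes), PARP1 promoter peaks at 5 (14.0%) and both at 4 (8.99%), namely FOSL1, FOSL2, JUN and JUND. EGR1, FOS and JUNB had no PARP1 promoter peak among these. Without peaks of the smallest width, the counts were 6 for PRMT6 (13.2% of all genes), 7 for PARP1 (18.5%) and 5 for both (10.3%).

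**Figure D1:**
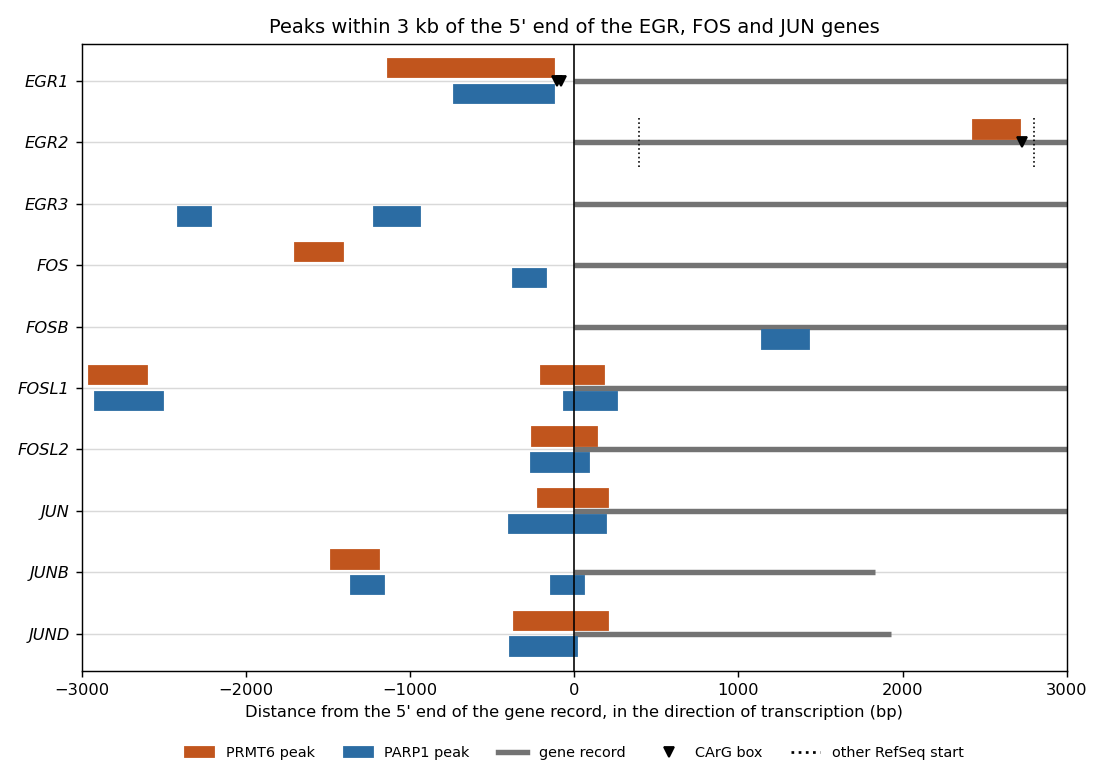
Peaks within 3 kb of the 5′ end of each gene, drawn to scale with distance in bp in the direction of transcription on the x axis and 1 gene per row. Orange bars are PRMT6 peaks, blue bars PARP1 peaks, grey lines the gene record, triangles CArG boxes in the 250 bases before a start, and dotted lines further RefSeq start sites. Peaks of both lists span the 5′ end at FOSL1, FOSL2, JUN and JUND, while those of EGR1 end 122 and 125 bp before it.

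Although promoter peaks were frequent, their scores were not unusually high as a group. The best PRMT6 promoter peaks of the 8 genes that have such a peak had a median score percentile of 73.0 in the PRMT6 list, with a range from 13.7 (EGR2) to 97.8 (JUND). Over the 3600 protein-coding genes with a PRMT6 promoter peak the median was 71.5. For PARP1 the median was 62.6 over 9 genes, from 6.0 (EGR3) to 99.7 (JUN), against 61.9 over 4430 genes. The percentile is the share of peaks in the same list with a lower score. JUN and JUND thus stood near the top of both lists with FOSL1 behind them, while EGR1, FOS and JUNB lay between the 37.3 and 75.0 percentiles and EGR2 and EGR3 near the bottom of the list that held them.

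**Figure D2:**
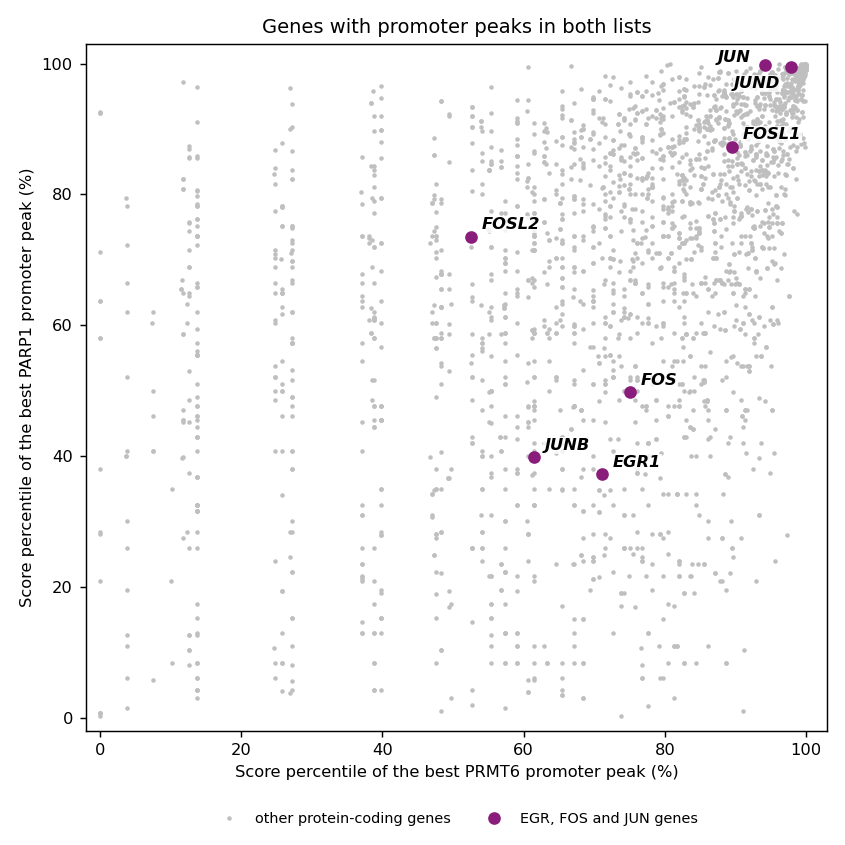
Score percentile of the best PRMT6 promoter peak (x axis) against that of the best PARP1 promoter peak (y axis), in percent of each list, for the 2637 protein-coding genes with promoter peaks in both lists. Grey points are other genes and purple points the 7 EGR, FOS and JUN genes, of which JUND and JUN lie at 97.8 and 94.1 on the x axis and at 99.6 and 99.7 on the y axis.

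By the best promoter peak of each gene, EGR2 ranked lowest of the set for PRMT6 and EGR3 for PARP1, with EGR1 next lowest for PARP1. EGR1 (Gene ID 1958, chr5:138465479-138469303, plus strand) encodes a zinc finger factor that responds to nearly all growth signals. Its PRMT6 peak (chr5:138464343-138465357) reached from 1136 to 122 bp upstream of the 5′ end, with a score of 6.91 and rank 2621. Its PARP1 peak (chr5:138464748-138465354) reached from 731 to 125 bp upstream, with a score of 5.73 and rank 7301. The PARP1 peak lay wholly within the PRMT6 peak, and their downstream ends were 3 bp apart. The PRMT6 peak was 1014 bp wide, wider than 99.9% of the PRMT6 list, and the PARP1 peak, at 606 bp, was wider than 97.8% of its list, so these were broad peaks of moderate score. No other peak of either list lay within 50 kb of EGR1.

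The 250 bases before the EGR1 5′ end are shown because both peaks end inside them. The sequence is RefSeq, GRCh38.p14, chr5:138465229-138465478, plus strand, and the capitals mark the CArG boxes.
EGR1: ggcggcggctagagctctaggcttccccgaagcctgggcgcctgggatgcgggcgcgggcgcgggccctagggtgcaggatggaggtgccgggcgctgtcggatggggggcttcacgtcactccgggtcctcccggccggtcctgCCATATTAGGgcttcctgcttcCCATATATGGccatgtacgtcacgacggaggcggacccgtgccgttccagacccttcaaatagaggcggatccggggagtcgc
The first 129 of these bases lay in the PRMT6 peak and the first 126 in the PARP1 peak. The CArG boxes read CCATATTAGG, from 105 to 96 bp upstream, and CCATATATGG, from 83 to 74 bp upstream. Both lay outside the peaks. The nearer box began 17 bp beyond the end of the PRMT6 peak and 20 bp beyond the end of the PARP1 peak. Bases further upstream, which hold most of each peak, were not searched, so CArG boxes inside the peaks there would have been missed. A CArG box was found in 1.16% of the 35116 promoter sequences of the same length in the RefSeq table.

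EGR2 (Gene ID 1959, chr10:62811996-62819167, minus strand), a factor known for its part in the myelination of peripheral nerves, had a single PRMT6 peak (chr10:62816449-62816737, score 4.48, rank 6841) and no PARP1 peak within 50 kb. The nearest PARP1 peak was 66898 bp upstream. The PRMT6 peak had the smallest width in its list, 288 bp, and lay inside the gene record, 2430 to 2718 bp downstream of the 5′ end. RefSeq lists 3 start sites for EGR2, and the most downstream of them, 2801 bp after the 5′ end of the record, lay just beyond the peak. Measured from that start, the peak reached from 371 to 83 bp upstream, a place close to that of the EGR1 peaks. The 250 bases before this start are given for comparison with EGR1 (RefSeq, GRCh38.p14, chr10:62816367-62816616, minus strand), with the CArG box in capitals.
EGR2: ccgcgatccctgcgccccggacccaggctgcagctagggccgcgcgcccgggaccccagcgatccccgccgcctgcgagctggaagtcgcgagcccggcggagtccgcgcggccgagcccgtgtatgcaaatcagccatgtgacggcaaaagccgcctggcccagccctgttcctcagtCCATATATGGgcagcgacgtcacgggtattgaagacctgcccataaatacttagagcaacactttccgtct
The first 168 of these bases were inside the PRMT6 peak. The only CArG box in this window, CCATATATGG, lay 71 to 62 bp upstream of the start, 12 bp beyond the end of the peak. It has the same letters as the second box of EGR1. The windows before the other EGR2 starts held no CArG box and no peak base.

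At EGR3 (Gene ID 1960, chr8:22687659-22693480, minus strand), a factor needed for muscle spindles, only PARP1 peaks were listed at the promoter. These lay 940 to 1221 bp upstream (chr8:22694420-22694701, score 4.20, rank 10721) and 2217 to 2417 bp upstream (chr8:22695697-22695897, score 4.10, rank 10999), both in the lowest decile of the PARP1 list. The nearest PRMT6 peak was 22601 bp upstream (chr8:22716081-22716369, score 5.37, rank 4600), inside the PEBP4 record. It shared 123 bp with a PARP1 peak there (chr8:22715765-22716204, score 7.93, rank 3641). A further PARP1 peak of rank 8153 lay 20089 bp downstream of the 5′ end.

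Among the FOS genes, FOS itself (Gene ID 2353, chr14:75278828-75282230, plus strand), the prototype AP-1 subunit, was the single gene with promoter peaks of both lists that did not overlap. The PRMT6 peak (chr14:75277128-75277416, score 7.46, rank 2235) lay 1700 to 1412 bp upstream and had the smallest width in its list. The PARP1 peak (chr14:75278456-75278656, score 6.47, rank 5833) lay 372 to 172 bp upstream and also had the smallest width in its list, 200 bp. A gap of 1040 bp separated them. Both FOS promoter peaks were lost when peaks of the smallest width were left out.

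The strongest peaks near FOS were away from the promoter. About 20 kb upstream, a PRMT6 peak (chr14:75258795-75259419, score 17.5, rank 218) contained a PARP1 peak (chr14:75258968-75259401, score 26.5, rank 88) whole. They lay 19409 and 19427 bp from the 5′ end, overlapped no gene record, and had no other protein-coding 5′ end nearer than that of FOS. About 15 kb downstream of the 5′ end, beyond the record, a PRMT6 peak (chr14:75293893-75294353, score 10.4, rank 1012) likewise contained a PARP1 peak (chr14:75294001-75294336, score 9.83, rank 2175). FOS was thus flanked by shared peaks that ranked higher in both lists than the peaks at its promoter. JDP2 and BATF, which encode other leucine zipper partners of AP-1, lie 144713 and 240239 bp from the FOS record, outside the distance searched.

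The bases before the FOS 5′ end are printed because the PARP1 peak ends inside them (RefSeq, GRCh38.p14, chr14:75278578-75278827, plus strand), with a TATA box and a GC box in capitals.
FOS: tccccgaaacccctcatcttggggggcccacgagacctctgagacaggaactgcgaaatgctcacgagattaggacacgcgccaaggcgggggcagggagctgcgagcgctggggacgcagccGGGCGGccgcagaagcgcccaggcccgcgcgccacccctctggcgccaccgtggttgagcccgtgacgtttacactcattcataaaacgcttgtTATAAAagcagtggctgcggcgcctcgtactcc
The first 79 bases lay in the PARP1 peak and none in the PRMT6 peak. The GC box, GGGCGG, began 127 bp upstream and the TATA box, TATAAA, 33 bp upstream, both outside the peak. No CArG box was found in this window, and bases further upstream were not searched.

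FOSB (Gene ID 2354, chr19:45467996-45475179, plus strand), a FOS relative induced in neurons and many other cells, had no PRMT6 promoter peak. A PARP1 peak (chr19:45469139-45469424, score 7.33, rank 4361) lay inside the record, 1143 to 1428 bp downstream of the 5′ end. Within 50 kb of the record there were 9 PARP1 peaks, the most of any member, a number reached by 0.142% of all protein-coding genes. The same region held 3 PRMT6 peaks, a number reached by 13.0%. The best peak of each list was part of a shared pair, about 12 kb upstream of the 5′ end (chr19:45455621-45456067 for PRMT6, score 15.8, rank 315, and chr19:45455695-45456052 for PARP1, score 21.9, rank 175). It overlapped no gene record, and the nearest protein-coding 5′ end, 4074 bp from the PRMT6 peak, was that of the DNA repair gene ERCC1. A second shared pair lay within the ERCC1 record (chr19:45443433-45443874, score 14.8, rank 382, and chr19:45443559-45443799, score 9.05, rank 2688) and another within RTN2 (ranks 3930 and 2509). Of the PARP1 peaks without a PRMT6 partner, the best (chr19:45478204-45478692, score 10.8, rank 1699) covered the selenocysteine tRNA gene TRU-TCA1-1, 10208 bp downstream of the FOSB 5′ end. Others overlapped the ERCC1 record (ranks 4341 and 6165), lay 605 bp from the VASP 5′ end (rank 2802) or overlapped the VASP record (rank 2601). The number near FOSB thus includes peaks at neighbouring genes.

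FOSL1 (Gene ID 8061, chr11:65892049-65900545, minus strand) encodes FRA-1, which is abundant in triple-negative breast cancer cells. Peaks of both lists spanned its 5′ end. The PRMT6 peak (chr11:65900362-65900748) ran from 203 bp upstream to 183 bp downstream, with a score of 10.6 and rank 959, and the PARP1 peak (chr11:65900283-65900607) from 62 bp upstream to 262 bp downstream, with a score of 11.4 and rank 1479. A second shared pair lay at the edge of the promoter window, where the PRMT6 peak (chr11:65903153-65903506, score 6.43, rank 3142) started 2961 bp upstream and shared 314 bp with the PARP1 peak (chr11:65903051-65903467, score 8.68, rank 2945). Within 50 kb of the record there were 5 PRMT6 and 7 PARP1 peaks. Of these, 2 PRMT6 and 4 PARP1 peaks lay within 3 kb of the 5′ ends of other coding genes, CFL1 and MUS81 or FIBP and CCDC85B. The best PRMT6 peak of the region (chr11:65858088-65858451, score 11.6, rank 745) was among them. It overlapped the CFL1 record, shared 200 bp with a PARP1 peak (rank 4825) and ranked above the FOSL1 promoter peak. The best PARP1 peak of the region (chr11:65915586-65916019, score 13.7, rank 865) had no PRMT6 partner and lay 15041 bp upstream of FOSL1 and 3043 bp from the 5′ end of C11orf68.

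FOSL2 (Gene ID 2355, chr2:28392858-28417317, plus strand) encodes FRA-2 and has the longest record of the 10 genes, 24460 bp. Both lists had a peak across its 5′ end, and these nearly coincided. The PRMT6 peak (chr2:28392601-28392995, score 5.54, rank 4301) and the PARP1 peak (chr2:28392596-28392945, score 8.51, rank 3080) had centres 27.5 bp apart, the closest of the 7 overlapping promoter pairs. The peaks also overlapped the antisense record FOSL2-AS1, and peaks carry no strand. FOSL2 was the only member with peaks inside its record but beyond the promoter, and a link to record length was not tested. The records of JUNB and JUND (1830 and 1929 bp) end within the 3 kb promoter window. Those of JUN, FOS and EGR1 (3257, 3403 and 3825 bp) reach little beyond it. Those of EGR3, EGR2, FOSB and FOSL1 (5822, 7172, 7184 and 8497 bp) reach further and also held no such peak. Inside FOSL2, a shared pair lay 16 kb from the 5′ end (chr2:28409044-28409584, score 5.55, rank 4181 for PRMT6, and chr2:28409083-28409615, score 4.96, rank 9150 for PARP1). A PRMT6 peak of the smallest width lay 7090 bp from that end (score 3.35, rank 8412). Upstream, a shared pair at about 33 kb (ranks 2895 and 1353) overlapped the noncoding record LOC105374382.

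JUN and JUND carried the best-ranking promoter peaks of the set in both lists. JUN (Gene ID 3725, chr1:58780791-58784047, minus strand), the main partner of FOS proteins, had a PRMT6 peak (chr1:58783841-58784270) from 223 bp upstream to 206 bp downstream of its 5′ end, with a score of 13.1 and rank 529. Its PARP1 peak (chr1:58783855-58784444) ran from 397 bp upstream to 192 bp downstream, with a score of 33.8 and rank 31 of 11651. Among the 4430 genes with a PARP1 promoter peak JUN stood in place 13, and among the 3600 with a PRMT6 promoter peak in place 428. The PARP1 peak was 589 bp wide, wider than 97.3% of its list. A weaker shared pair lay 28 kb downstream of the 5′ end (ranks 2418 and 8153), over the noncoding record LOC112268263.

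JUND (Gene ID 3727, chr19:18279694-18281622, minus strand), which encodes a JUN relative that many resting cells also make, showed the highest mean score percentile of the members. The PRMT6 peak (chr19:18281415-18281989) ran from 367 bp upstream to 207 bp downstream of the 5′ end, with a score of 17.9 and rank 200, and the PARP1 peak (chr19:18281605-18282017) from 395 bp upstream to 17 bp downstream, with a score of 31.0 and rank 52. They shared 384 bp. In the order of genes by their best promoter peak, JUND stood in place 173 for PRMT6 and 23 for PARP1. Over the 2637 genes with promoter peaks in both lists, KLHDC3 and MEA1, with a common peak in each list, and ZNF687 lay closest to JUND in the pair of score percentiles (distances of 0.079, 0.079 and 0.11 percentage points over the 2 libraries). For EGR1 the closest were RNF24, PCGF2 and PSMB3 (1.51, 2.57 and 2.57 points).

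The bases before the 5′ ends of JUN and JUND are shown since peaks of both lists cover them (RefSeq, GRCh38.p14, chr1:58784048-58784297 and chr19:18281623-18281872, both minus strand). Capitals mark GC boxes (GGGCGG on either strand) and, in JUND, the cAMP response element TGACGTCA.
JUN: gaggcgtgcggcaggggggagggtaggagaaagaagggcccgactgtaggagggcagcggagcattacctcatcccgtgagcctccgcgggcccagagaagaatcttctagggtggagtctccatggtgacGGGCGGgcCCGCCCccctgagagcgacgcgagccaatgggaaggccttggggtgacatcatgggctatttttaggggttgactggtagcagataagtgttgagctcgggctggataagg
JUND: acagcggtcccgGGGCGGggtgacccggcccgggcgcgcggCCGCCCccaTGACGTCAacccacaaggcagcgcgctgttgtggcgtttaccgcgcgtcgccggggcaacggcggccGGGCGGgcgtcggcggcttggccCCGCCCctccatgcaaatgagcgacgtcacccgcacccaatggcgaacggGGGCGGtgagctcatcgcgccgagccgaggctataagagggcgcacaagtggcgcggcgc
In JUN the PRMT6 peak covered the 223 bases next to the 5′ end and the PARP1 peak all 250, and in JUND both peaks covered all 250. JUN held 2 GC boxes and JUND 5. The cAMP response element of JUND, which reads the same on both strands, lay 200 to 193 bp upstream, inside both peaks. It was found in 1.65% of the RefSeq promoter sequences, and a GC box in 42.6%. The other motifs searched on both strands were the AP-1 site TGANTCA (6.57% of promoters), the TATA box TATAAA (10.7%), the EGR site GCGTGGGCG (0.72%) and the ETS core CCGGAA (14.5%). Across the 8 members with a RefSeq promoter sequence, the TATA box was found in FOS, FOSB and JUNB, the ETS core in FOSB, and neither the AP-1 site nor the EGR site in any of these windows. A match of letters is a description and not a binding site.

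JUNB (Gene ID 3726, chr19:12791486-12793315, plus strand), a JUN relative with weaker activating capacity, differed from JUN and JUND in that no PRMT6 peak reached its 5′ end. The PRMT6 peak (chr19:12790000-12790294, score 6.20, rank 3505) lay 1486 to 1192 bp upstream and shared 171 bp with a PARP1 peak (chr19:12790123-12790323, score 4.82, rank 9438). A second PARP1 peak (chr19:12791342-12791542, score 5.85, rank 7008) spanned the 5′ end, from 144 bp upstream to 56 bp downstream, and had no PRMT6 partner. The peaks at the promoter overlapped the record of HOOK2, whose 5′ end is also within 3 kb, so the gene they belong to cannot be told apart by position.

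Inside the gene records, the first 3 kb included, PRMT6 peaks were found at 5 members (EGR2, FOSL1, FOSL2, JUN and JUND) and PARP1 peaks at 6 (FOSB, FOSL1, FOSL2, JUN, JUNB and JUND). Over all protein-coding genes the shares were 24.7% and 27.2%. Within 50 kb of the records there were 27 PRMT6 peaks, at 10 of 10 members, and 35 PARP1 peaks, at 9 of 10, against 56.9% and 61.9% of all genes with at least 1 such peak. The median number per member was 3 in each list, with a range from 1 (EGR1, EGR2 and EGR3) to 5 (FOSL1 and FOSL2) for PRMT6 and from 0 (EGR2) to 9 (FOSB) for PARP1. The median over all genes was 1 in each list.

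Overlap with the other list was seen for 18 of the 27 PRMT6 peaks (66.7%, 46.0% to 83.5%), against 46.4% of the whole PRMT6 list. It was seen for 18 of the 35 PARP1 peaks (51.4%, 34.0% to 68.6%), against 36.4% of the whole PARP1 list. These peaks are clustered around 10 genes, and FOSB and FOSL1 together hold 16 of the 35 PARP1 peaks, so the intervals, which treat peaks as independent, may be too narrow, and the shares are given as a description. The 18 pairs comprised 7 at promoters and 11 elsewhere. Their centres were 7.5 to 240.5 bp apart, with a median of 73.25 bp. The score percentile was higher in the PRMT6 list in 9 pairs and in the PARP1 list in the other 9. Of the peaks outside the members' promoters, 15 of 18 PRMT6 and 16 of 23 PARP1 peaks were not within 3 kb of any protein-coding 5′ end. No whole-list share is set beside these counts, so they are a description only.

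**Figure D3:**
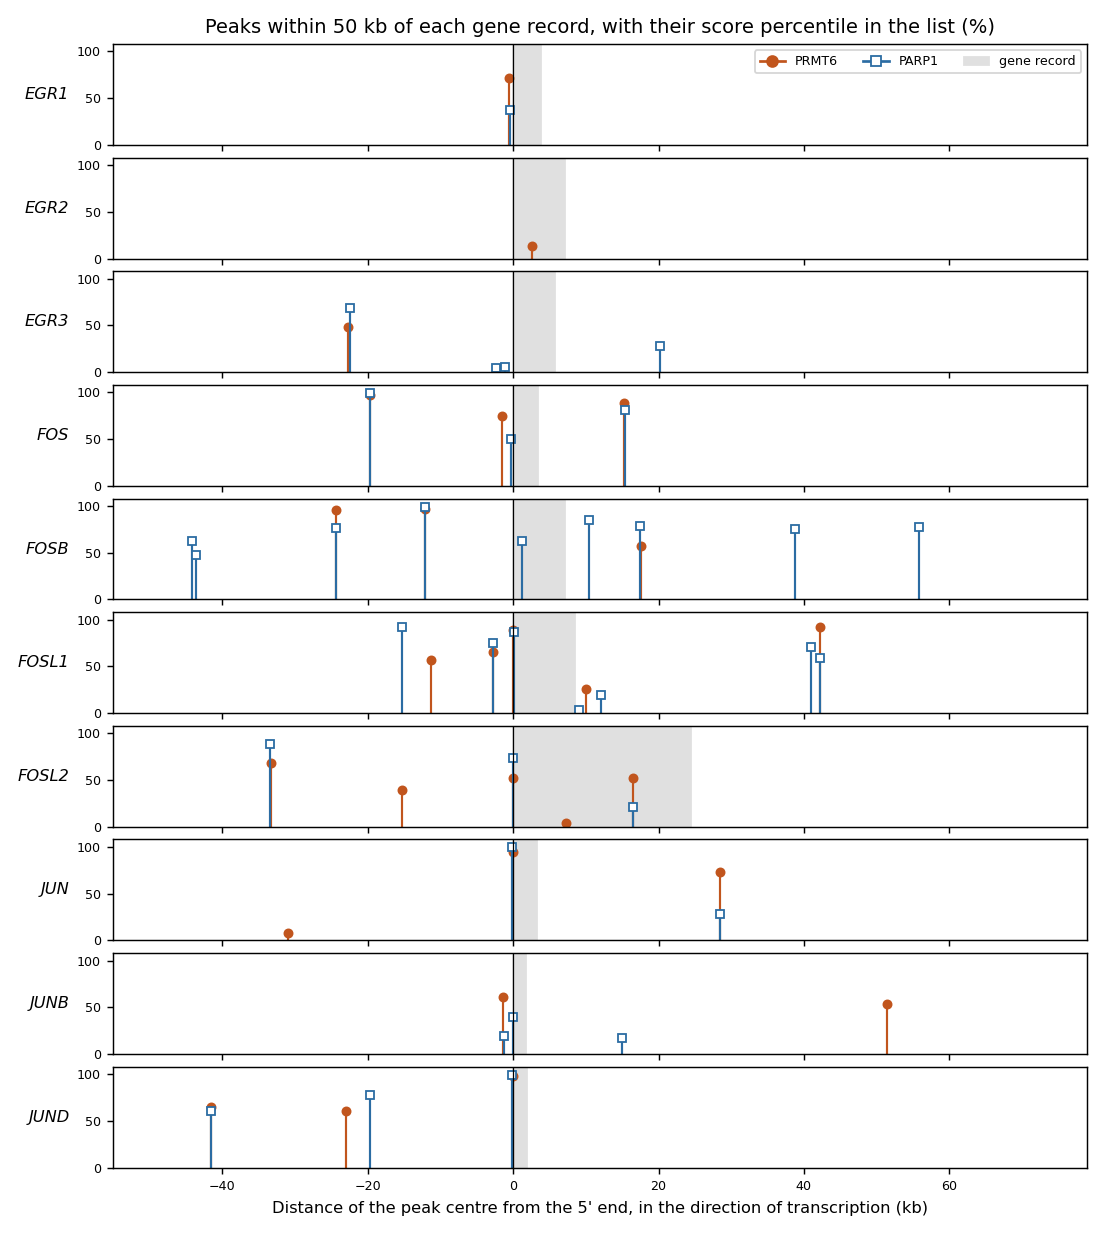
Peaks within 50 kb of each gene record, with the distance of the peak centre from the 5′ end in kb on the x axis and the score percentile in its own list in percent on the y axis, 1 panel per gene. Filled orange circles are PRMT6 peaks, open blue squares PARP1 peaks and grey bands the gene record. The shared pair 20 kb upstream of FOS stands at 97.6 and 99.2, above the FOS promoter peaks at 75.0 and 49.8, whereas JUN and JUND have their best peaks at the 5′ end.

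The other genes of the pathway were looked up in 3 lists. Of 35 other immediate-early genes, 12 had a PRMT6 promoter peak (34.3%, 19.1% to 52.2%), 21 had a PARP1 promoter peak (60.0%, 42.1% to 76.1%) and 11 had both (31.4%, 16.9% to 49.3%). The best of those with both by mean score percentile were TRIB1, a pseudokinase gene (ranks 791 and 179 for PRMT6 and PARP1), and KLF6, a zinc finger factor gene (ranks 321 and 1003), followed by KLF10, CCN2, PPP1R15A, ZFP36, BTG1, MCL1, IER2 and IER3. Of 10 regulators of immediate-early genes, 3 had promoter peaks in both lists (30.0%, 6.67% to 65.2%), ELK1 (ranks 855 and 2108), CREB1 (ranks 1786 and 2038) and ELK4 (ranks 2907 and 7383). SRF had a PARP1 promoter peak only (rank 4630), and NAB2, a repressor of EGR proteins, had PRMT6 promoter peaks only (ranks 3000 and 4569). Of 12 other leucine zipper partners, 4 had promoter peaks in both lists (33.3%, 9.92% to 65.1%), ATF2 (ranks 159 and 1138), MAFA (ranks 1477 and 929), NRL and ATF7. Over the 57 genes of the 3 lists, 18 had promoter peaks in both (31.6%), and at each of these 18 the peaks overlapped. Among all protein-coding genes with promoter peaks in both lists, the peaks overlapped at 2540 of 2637. GAPDH, the control of the study's qChIP assays, had promoter peaks in both lists too (ranks 3507 and 4882), which did not overlap. The EGR1 peaks ranked above it for PRMT6 (2621) and below it for PARP1 (7301).

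**Figure D4:**
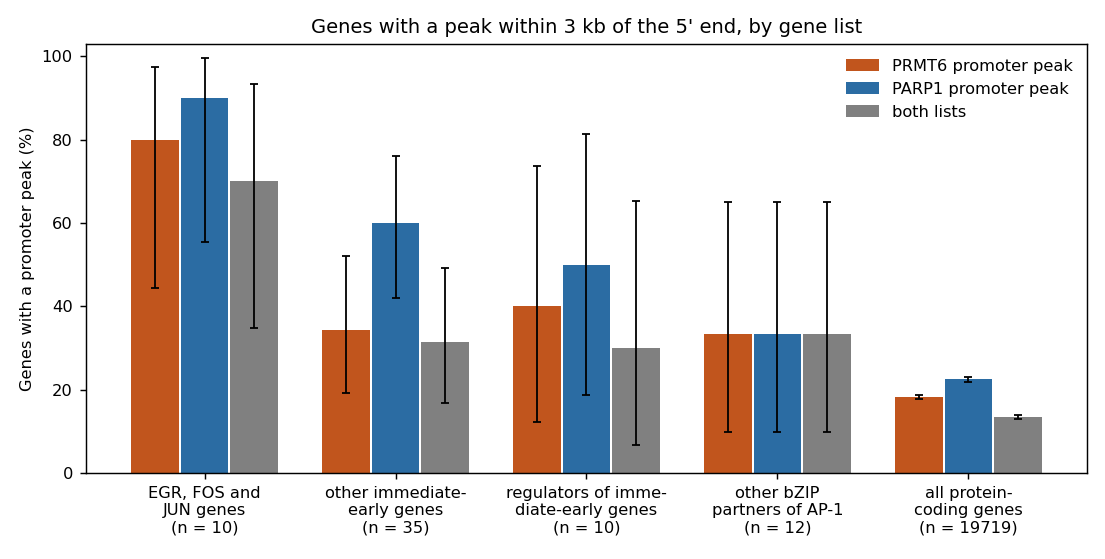
Share of genes, in percent, with a peak within 3 kb of the 5′ end, for the EGR, FOS and JUN genes, the 3 other gene lists and all protein-coding genes. Orange bars are PRMT6, blue bars PARP1 and grey bars genes with a peak in both lists, and whiskers are 95% exact binomial intervals. The EGR, FOS and JUN genes reach 80.0%, 90.0% and 70.0%, against 18.3%, 22.5% and 13.4% of all genes.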

How the data were processed

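The study's methods describe CUT&Tag, where a transposase cuts DNA next to the bound antibody, whereas the labels add adaptor ligation to precipitated DNA. Which of these made the libraries is uncertain. The submitters' processing notes list CASAVA 1.4, Bowtie 0.12.8, MACS and MACS2 and the build hg19, without roles, and 1 peak list was deposited per library. The thresholds, duplicate handling and any control library are not given in the sources used here. The deposited lists hold positions and a score, read as −log10 of a p-value because its minimum is just above 3 in both lists. It may be a q-value. Against the labelled build, 55 PRMT6 and 61 PARP1 peaks ended beyond GRCh37 chromosome ends, so RefSeq gene records of GRCh38.p14 were used. Positions are printed as listed.

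Strand came from the RefSeq promoter table or, for 3877 coding genes, EGR3 and FOSL1 included, from GENCODE by symbol or synonym, and 318 coding genes without strand were left out. Each gene has 1 5′ end, that of its record. Overlap meant at least 1 shared bp. Motifs were searched in the 250 bases before each RefSeq start. Analyses used Python 3.11.15, numpy 2.4.6, pandas 2.3.3 and scipy 1.17.1, were tested on simulated data, and figures used matplotlib 3.10.9. Members, lists and motifs were chosen with earlier results of these data known. Named were all members, up to 10 genes with both promoter peaks per list, GAPDH, the 3 genes most alike to JUND and EGR1, and the 5 best distal peaks per list. SRF and NAB2 were named after their values were seen. Exons and untranslated regions were not analysed here.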

Additional observations from a re-analysis of the deposited data

How the results depend on the processing

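Of 67 alternative values, 62 stayed within 1.5 times the count or within the interval of the share, and 5 moved. With the peaks of each list below its median score left out, 5 members had a PARP1 promoter peak (14.0% of all protein-coding genes), 4 members had promoter peaks in both lists (8.99%), and 22 PARP1 peaks lay within 50 kb of a member, which a shorter list brings about by construction. With a promoter of 1 kb on either side, 5 members had a PRMT6 promoter peak (16.3% of all genes), since the peaks at EGR2, FOS and JUNB lie further from the 5′ end. Within 100 kb there were 43 PRMT6 peaks. Without peaks of the smallest width, 6 members had a PRMT6 and 7 a PARP1 promoter peak, and 5 had both (13.2%, 18.5% and 10.3% of all genes). All RefSeq start sites, an alternative added after the data were seen, left 8, 9 and 7 members (19.6%, 24.1% and 14.4% of all genes). Unknown depth limits what an absent peak at EGR2, EGR3 or FOSB can show. No paired analysis was possible because only 1 library was made per antibody.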
